A study of Mus musculus with 6 samples.

Results

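The weak Satb1 knockdown experiment sets 1 RNA-seq library from mice given Satb1 siRNA against 1 library from mice given non-targeting (NT) siRNA. Both libraries were chosen by their labels and are 2 of the 6 libraries in the series. The other 4 form a strong knockdown experiment, with 2 repeat libraries for each siRNA. Every mouse was of the C57BL/6 strain and bore ID8-Defb29/Vegf-a, an ovarian cancer line of the mouse made to express a beta-defensin and VEGF-A. The siRNA was given as complexes with rhodamine-labelled polyethylenimine, a polymer carrier taken up by phagocytes, at 100 µg over 32 to 38 days. The labels give the 2 arms the same strain, tumour, carrier and range of days, and a different siRNA. The labels call the cells cancer-associated dendritic cells, and neither the sort nor the number of mice behind a library is given in the sources used here. Of 27634 genes in the deposited table, 12977 had a mean of at least 0 on the log2 scale of library-relative counts (CPM) in these 2 libraries, and ratios are given for those.

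Satb1 encodes a nuclear protein that binds AT-rich DNA, anchors chromatin loops and brings chromatin-remodelling enzymes to its target genes. It is best known for its work in thymocytes and for the cytokine genes of T helper cells, and it is also expressed in dendritic cells. Dendritic cells take up antigen and present it on MHC class II molecules. In tumours they can take on a suppressive state, with arginase, nitric oxide synthase, prostaglandins or galectin-1 acting on T cells.

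The low NT library held 27029554 counts and the low Satb1 siRNA library 24553454, against 49022011 to 71272720 in the strong experiment. A count of 0 allows up to 3 counts, which is 0.111 CPM in the NT and 0.122 CPM in the Satb1 siRNA library before scaling. Genes with at least 1 count numbered 18011 and 18429, against 22979 to 23160 in the strong experiment, and no source used here says whether the 2 experiments were prepared together. With 1 library for each siRNA there is no replicate spread, so every ratio below describes these libraries, and the intervals cover counting error only. Levels are in CPM scaled by the trimmed mean of M-values (TMM) over all 6 libraries unless FPKM is named.

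Satb1 itself was close to its control level. It had 170 counts in the NT library and 165 in the Satb1 siRNA library, or 8.89 and 7.42 CPM. The ratio was 0.835 (95% counting interval 0.670 to 1.04), a log2 ratio of -0.26. The interval includes 1, so a decrease was not detectable at this depth. The authors' deposited FPKM values were 0.98 and 1.04, in the opposite order, and scaling by library size alone gave a log2 ratio of 0.095. Satb1 in the strong experiment stood at 16.6 and 15.3 CPM with NT and at 3.12 and 3.58 CPM with Satb1 siRNA, so the low NT library lay between those groups before any Satb1 siRNA.

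Many genes differed between the low libraries although Satb1 hardly did. The median log2 ratio of all genes tested was -0.065, with a 5th percentile of -0.86 and a 95th percentile of 1.44. At least 2-fold higher in the Satb1 siRNA library were 1055 genes (8.13% of those tested), and at least 2-fold lower were 436 (3.36%). At a fold of 1.5, 1846 genes (14.2%) were higher and 1508 (11.6%) lower. Between the repeat libraries of the strong experiment a difference of 2-fold was seen for 3 of 14154 genes with NT (0.0212%) and 10 of 14437 with Satb1 siRNA (0.0693%). Those repeats were nearly identical in their counts (chi-square per gene of 1.202 and 1.37, where counting noise gives about 1), against 86.4 for the 2 low libraries, and do not show how far 2 separately treated mice would differ. Of the 2-fold differences, 70.8% were higher. Scaling by library size alone moved the median of all genes up by 0.354 and gave 1598 higher and 164 lower genes, 90.7% higher. With TMM factors taken from the more abundant genes alone, the split was 1175 higher and 262 lower, 81.8% higher. The direction of a group is therefore given relative to the median of all genes.

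Ratios also went with the level of the gene. Among the 2172 genes with a mean log2 CPM under 2, 20.7% were at least 2-fold higher and 7.04% at least 2-fold lower. Among the 924 genes with a mean of 8 or more, 0.325% were higher and 6.06% lower, with a median log2 ratio of -0.43. Fth1, the ferritin heavy chain gene, took 1.30% of all counts in the NT library and 0.728% in the Satb1 siRNA library, and the light chain gene Ftl1 took 1.08% and 0.678%. Ratios went with gene structure as well. When the 11853 tested genes of known intron length were cut into 4 equal parts by it, the median was -0.15 for the shortest and 0.039 for the longest introns, and -0.20 and 0.060 in the strong experiment. The part of these properties in single ratios was not tested.

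**Figure D1:**
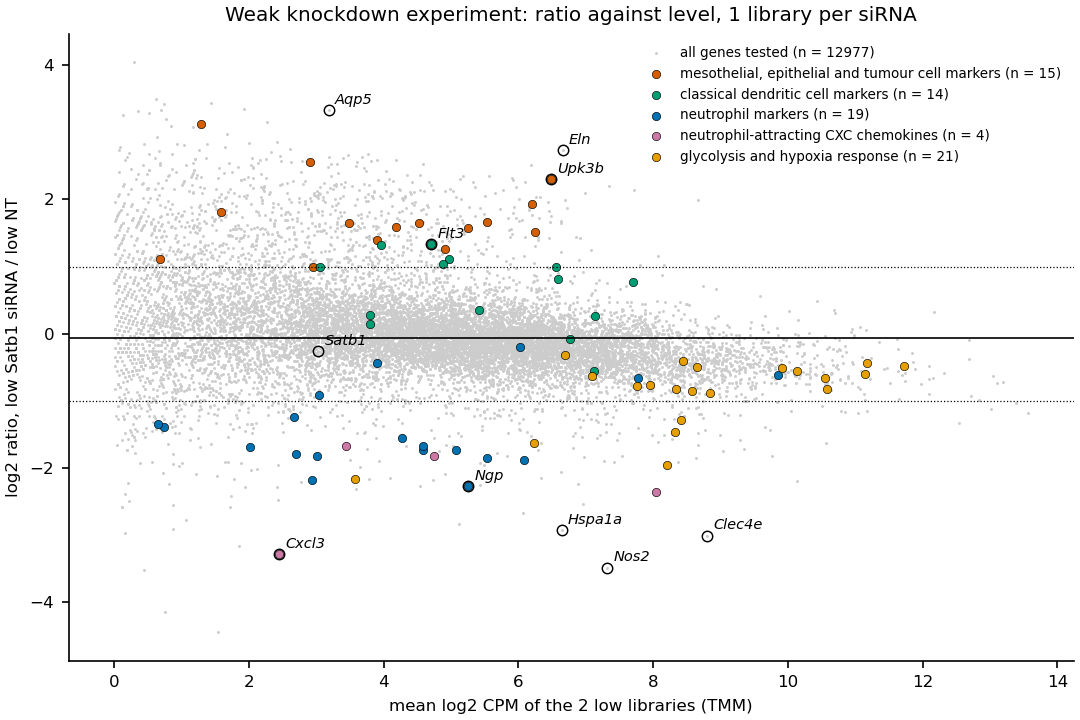
Log2 ratio of the low Satb1 siRNA library to the low NT library (vertical axis) against the mean log2 CPM of both (horizontal axis), with 1 grey point for each of 12977 genes, coloured points for 5 gene lists, dotted lines at 2-fold and a solid line at the median of all genes. Satb1 lies near the median, neutrophil markers, CXC chemokines and glycolysis genes lie below it, and mesothelial markers lie above the upper dotted line except Msln at 0.99.

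Among genes that reach a mean log2 CPM of 2, Nos2 lay furthest below its control level. This gene, which encodes inducible nitric oxide synthase, went from 534 CPM in the NT library to 47.7 CPM in the Satb1 siRNA library, a ratio of 0.0894 (95% counting interval 0.0838 to 0.0952) and a log2 ratio of -3.48. Clec4e, the gene of the glycolipid receptor Mincle, stood at 24181 against 3502 counts (log2 ratio -3.004). Ptges, the gene of an inducible prostaglandin E synthase, had 1769 against 289 counts (-2.83). The inducible chaperone genes Hspa1a and Hspa1b had 5257 against 803 and 3230 against 592 counts (-2.93 and -2.66), but reads of this near-identical pair may be divided between them. Among the 12 largest decreases were also Slpi, a secreted protease inhibitor (-2.53), Fosl1, an AP-1 subunit (-2.48), the kinase gene Tesk2 (-2.31), the neutrophil granule gene Ngp (-2.27) and the fatty acid receptor gene Gpr84 (-2.26). The remaining members of that set were the chemokine genes Cxcl3 and Cxcl2.

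Among genes at that level the 12 largest increases were of several kinds. Aqp5, a water channel of epithelia, went from 54 to 639 counts, or from 2.82 to 28.8 CPM (ratio 10.2, 95% counting interval 7.71 to 13.7). Eln, the gene of elastin, went from 39.0 to 260 CPM, a log2 ratio of 2.74 (746 and 5787 counts). The lysyl oxidases that crosslink elastin and collagen lay beside it, with Lox at 44 and 349 counts (2.75) and Loxl1 at 37 and 284 counts (2.699). Adhesion and guidance genes were among them too, with Flrt1 at 3.15, Kirrel at 2.63 and the semaphorin receptor gene Plxnb1 at 2.65. Also among the 12 largest increases were the adenylate kinase gene Ak7 (2.83), the glycosyltransferase gene Mgat3 (2.67), the secreted protein gene Islr (2.65), the transporter gene Slc22a23 (2.63) and the transcript s11-6 (2.85). Apart from Eln, these genes had between 28 and 102 counts in the NT library.

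Chemokines that attract neutrophils through CXCR2 were the list furthest below all genes. Of 6 measured genes 4 passed the filter on low values, and all 4 of these were at least 2-fold lower, with a median log2 ratio of -2.09 against -0.065 for all genes. Cxcl2 had 600 CPM in the NT and 117 CPM in the Satb1 siRNA library (-2.36). Cxcl3 had 324 and 38 counts (-3.28), Cxcl1 50.4 and 14.3 CPM (-1.81), and Ppbp 19.3 and 6.03 CPM (-1.67). Below the filter, Cxcl5 had 44 and 8 counts. The promoters of the most reduced chemokine genes, of the cytokine gene Il6 and of the prostaglandin synthase gene Ptgs2 are shown because NF-kappaB, AP-1 and C/EBP proteins are the textbook regulators of inflammatory genes. Each line holds the 250 bases before the RefSeq start of the gene on the plus strand of GRCm38.p6, at chr5:90785851-90786100 for Cxcl3, chr5:90903649-90903898 for Cxcl2, chr5:30012864-30013113 for Il6 and chr1:150099781-150100030 for Ptgs2. Capitals mark matches on either strand to a kappaB-like motif (GGANNTTCC), an AP-1 motif (TGANTCA), a C/EBP motif (TTGCNNAA) and the TATA box (TATAAA).
Cxcl3: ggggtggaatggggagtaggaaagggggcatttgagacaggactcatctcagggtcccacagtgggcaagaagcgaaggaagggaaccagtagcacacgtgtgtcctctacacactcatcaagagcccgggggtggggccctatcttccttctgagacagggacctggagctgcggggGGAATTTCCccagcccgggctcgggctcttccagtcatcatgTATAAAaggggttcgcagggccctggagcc
Cxcl2: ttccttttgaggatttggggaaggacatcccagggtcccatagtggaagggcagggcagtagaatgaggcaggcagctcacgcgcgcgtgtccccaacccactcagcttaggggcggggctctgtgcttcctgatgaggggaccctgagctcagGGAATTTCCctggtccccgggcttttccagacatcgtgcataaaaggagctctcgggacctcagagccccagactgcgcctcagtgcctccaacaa
Il6: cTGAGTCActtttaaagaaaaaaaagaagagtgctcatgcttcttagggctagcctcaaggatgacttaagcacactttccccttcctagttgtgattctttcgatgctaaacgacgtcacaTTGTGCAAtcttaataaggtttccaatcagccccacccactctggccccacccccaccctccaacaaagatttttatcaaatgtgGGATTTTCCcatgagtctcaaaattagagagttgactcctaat
Ptgs2: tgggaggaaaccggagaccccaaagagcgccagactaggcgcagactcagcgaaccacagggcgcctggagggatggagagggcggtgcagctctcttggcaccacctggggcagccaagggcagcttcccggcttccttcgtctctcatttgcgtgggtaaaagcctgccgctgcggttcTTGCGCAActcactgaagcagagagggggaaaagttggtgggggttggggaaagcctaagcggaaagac

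The same kappaB-like letters, GGAATTTCC, begin 72 bases before the start of Cxcl3 and 96 bases before that of Cxcl2, and Cxcl3 has TATAAA 30 bases before its start. In Il6 GGATTTTCC begins 43 bases before the start, an AP-1 match 249 bases before it and a C/EBP match, TTGTGCAA, 128 bases before it. Ptgs2 has the C/EBP match TTGCGCAA at 69 bases. Over all 32851 RefSeq promoter windows of this length, 3.59% hold the kappaB-like motif, 6.75% the AP-1 motif, 9.56% the C/EBP motif and 12.4% the TATA box. A match describes these letters and is no evidence that a factor bound there. Promoters were found for 72.6% of the genes tested and 68.3% of those at least 2-fold lower, so a comparison of the sets was void and was not made.

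Other chemokines were mixed. Of 5 interferon-induced or homeostatic CXC chemokine genes past the filter, 3 were at least 2-fold lower (median -1.18). Cxcl10, an attractant of activated T cells, had 2658 and 864 CPM (-1.62), and its relative Cxcl11 had 88.6 and 22.8 CPM (-1.96). Cxcl13, an attractant of B cells, lay on the other side at 0.96. Of 10 CC chemokine genes 1 was at least 2-fold lower and none at least 2-fold higher (median -0.25). That gene was Ccl5, at 594 and 279 CPM (-1.09, and -0.73 with scaling by library size alone). The monocyte attractants Ccl2 and Ccl9 were at -0.47 and -0.79, while Ccl22, an attractant made by mature dendritic cells, had 72.7 and 124 CPM (0.77).

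Cytokine genes and their NF-kappaB-dependent feedback genes were lower together. Of 14 cytokine genes past the filter, 6 were at least 2-fold and 10 at least 1.5-fold lower, with a median of -0.83. Il6 had 56.7 and 12.5 CPM (-2.18), Il27, whose product pairs with that of Ebi3, 29.3 and 7.87 CPM (-1.89), Tnf 301 and 109 CPM (-1.47) and Il1b 79.0 and 34.2 CPM (-1.21). Il12b, the shared subunit of interleukins 12 and 23, was the 1 gene at least 2-fold higher, from 31 and 91 counts (1.32). Among 17 NF-kappaB targets and feedback genes 8 were at least 2-fold lower, 14 at least 1.5-fold lower and none higher, with a median of -0.73. Ptgs2, which encodes cyclooxygenase-2, had 93.6 and 19.6 CPM (-2.25), and Sod2, the mitochondrial superoxide dismutase gene, 756 and 209 CPM (-1.85). Icam1, an adhesion molecule, was at -1.65 and the inhibitor gene Nfkbia at -1.46, whereas the subunit gene Rel was at -0.01.

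Immediate early genes, which respond within minutes to many stimuli, and stress chaperones were unevenly lower. Of 24 AP-1 and immediate early genes 5 were at least 2-fold and 14 at least 1.5-fold lower, with a median of -0.67. Apart from Fosl1, the members furthest down were Ier3, a survival gene (246 and 83.6 CPM, -1.56), and Egr1 (222 and 91.0 CPM, -1.29). Heat shock genes were at -0.31 as a list of 14, and Hspa1a and Hspa1b were its only members at least 2-fold lower. Hspa5, the chaperone of the endoplasmic reticulum, was at -0.99.

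In the same 2 libraries the neutrophil marker list was lower, and its part in the decreases above was not tested. Of 19 neutrophil marker genes past the filter, 14 were at least 2-fold lower and none higher (median -1.68), and all 19 lay below the median of all genes. Their summed level over 24 measured genes was 2069 CPM in the NT and 1152 CPM in the Satb1 siRNA library, against 356 to 436 CPM in the strong experiment. S100a8 and S100a9, the calprotectin genes, had 87.7 and 24.3 CPM and 130 and 35.4 CPM (-1.85 and -1.87). Ngp had 83.8 and 17.3 CPM and Camp, the cathelicidin gene, 16.3 and 3.55 CPM (-2.27 and -2.18). Of the 24 genes 1 had no count in the NT library and 3 in the Satb1 siRNA library. In bulk RNA fewer cells of a type and less RNA per cell cannot be told apart.

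The lists of suppressive mediators and of iron genes lay below the median of all genes as well. Of 17 genes of immunosuppressive mediators, 4 were at least 2-fold and 11 at least 1.5-fold lower (median -0.71). Nos2 and Ptges led them, while Arg1, the gene of arginase 1, had 4368 and 2673 CPM (-0.71) and Hmox1, the heme oxygenase gene, was at -0.99. Lgals1, which encodes galectin-1, went the other way, from 388 to 614 CPM (0.66). Of 11 metallothionein and iron genes 6 were at least 2-fold lower and none higher (median -1.03). The zinc-binding metallothionein Mt2 had 83.7 and 22.002 CPM (-1.93), lactoferrin (Ltf) 43.8 and 13.1 CPM (-1.74), Fth1 -1.19 and Ftl1 -1.03. Ltf stands in the neutrophil marker list too. Saa3, an acute phase protein, was the lowest of the large peritoneal macrophage list at 2388 and 525 CPM (-2.19), and Hp, the haptoglobin gene, the lowest of the monocyte list at 331 and 88.2 CPM (-1.91).

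Genes of glycolysis and of the response to low oxygen were all on the lower side. All 21 genes past the filter lay below the median of all genes, 14 were at least 1.5-fold and 5 at least 2-fold lower, with a median of -0.76. Adm, the adrenomedullin gene, had 24.99 and 5.58 CPM (-2.16), the disulfide oxidase gene Ero1l 580 and 150 CPM (-1.95) and the glucose transporter gene Slc2a1 530 and 193 CPM (-1.46). Aldoa, with 2 and 7 counts, and Gapdh, with 13 and 8, did not pass the filter. The 16 genes of the unfolded protein response also all lay below that median (median -0.58), with Manf at 194 and 94.9 CPM (-1.03, and -0.67 with scaling by library size alone). Amino acid stress genes were mixed (median -0.15), from the cystine transporter gene Slc7a11 at 170 and 38.2 CPM (-2.15) to the serine synthesis gene Phgdh at 11.97 and 25.2 CPM (1.07).

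Housekeeping lists of abundant genes give the scale against which these groups can be read. All 21 ribosomal protein genes lay below the median of all genes, with a median of -0.55 and a range from -0.81 (Rplp1) to -0.09 (Rpl7), and none was at least 2-fold lower. The 22 respiratory chain genes had a median of -0.22, with Cox4i1 at -0.51. Cell cycle genes lay on the other side, with 22 of 26 above the median of all genes and a median of 0.25. Cdc20, an activator of mitotic exit, had 6.17 and 12.9 CPM (1.06), the replication helicase gene Mcm4 37.7 and 59.5 CPM (0.66) and Mki67 105 and 123 CPM (0.22). Of 23 histone genes only 6 passed the filter, and their reads may be shared among near-identical copies (Hist1h2bg 49 and 144 counts).

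**Figure D2:**
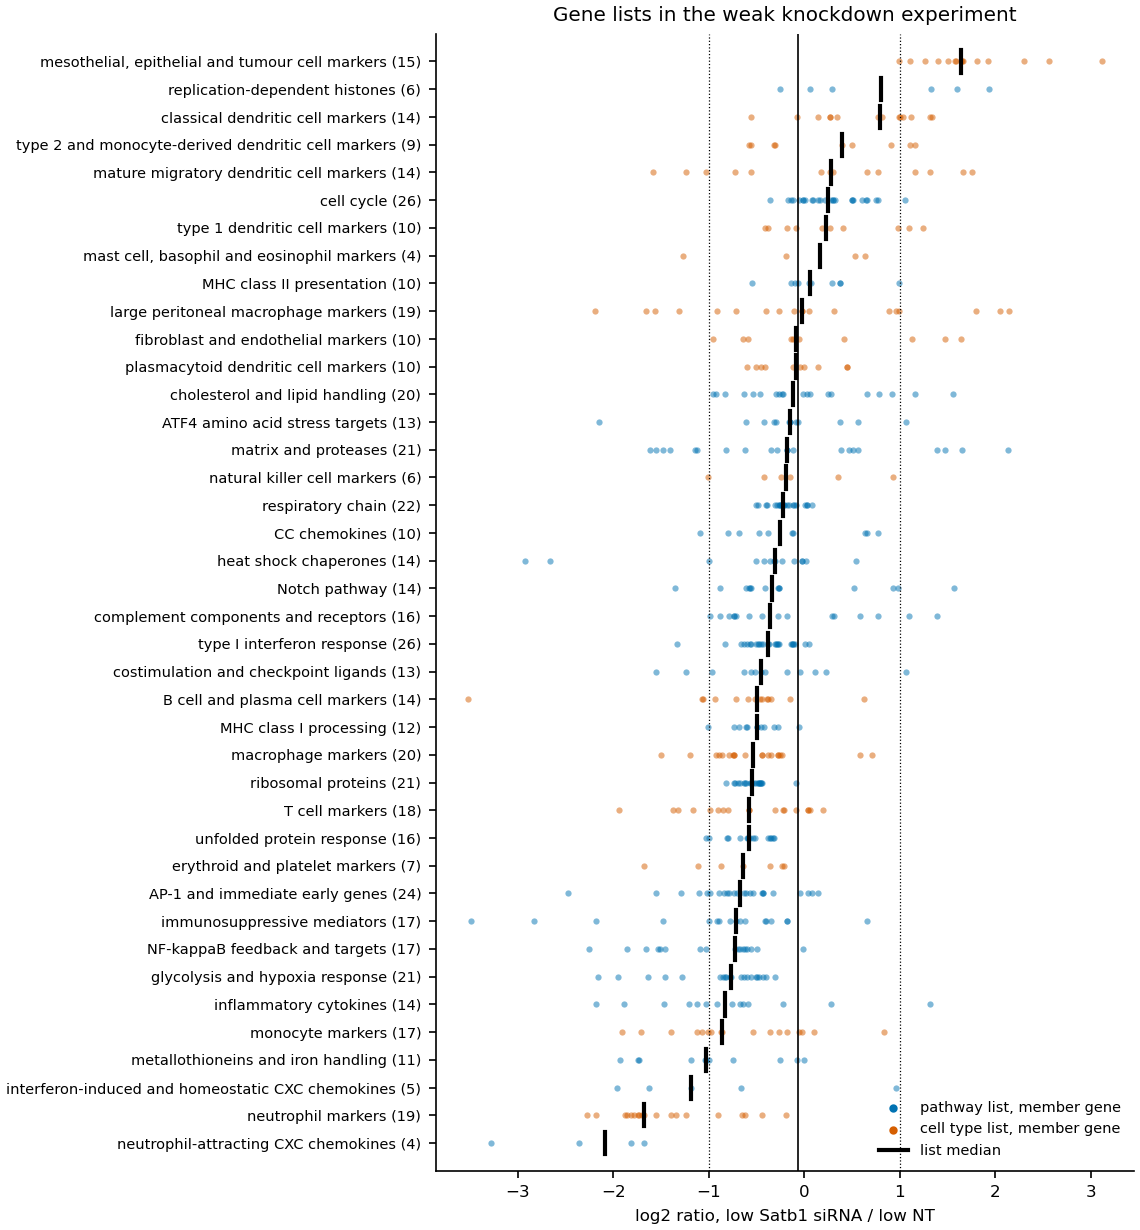
Log2 ratios of the genes past the filter in 40 gene lists, 1 point per gene, with the number of genes in brackets, a black bar at each list's median, a solid line at the median of all genes and dotted lines at 2-fold. Neutrophil-attracting chemokines and neutrophil markers have the lowest medians (-2.09 and -1.68), and the list of mesothelial, epithelial and tumour cell markers has the highest (1.64).

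Genes of MHC class II presentation stayed near the median of all genes, and those of class I lay below it. Of 10 genes of MHC class II presentation none was 2-fold lower or higher, and 7 lay above the median of all genes (list median 0.06). H2-Ab1 had 1705 and 1632 CPM (-0.06), H2-Aa 2243 and 2319 CPM (0.05) and the invariant chain gene Cd74 6811 and 6386 CPM (-0.09). Ciita, the class II transactivator, had 66.4 and 132 CPM (ratio 1.99, 95% counting interval 1.87 to 2.13). The cathepsin gene Ctss, which cuts the invariant chain, was at -0.55. Of 12 MHC class I processing genes 11 lay below the median of all genes, 5 were at least 1.5-fold and 1 at least 2-fold lower, and the list median was -0.49 (H2-K1 -0.73, H2-Q7 -1.01). Their reads may be divided among related H2 genes. Of 26 genes of the type I interferon response 24 lay below that median (list median -0.38). Rsad2, the viperin gene, had 9457 and 3772 CPM (-1.33, and -0.97 with scaling by library size alone), while Isg15 was at -0.47 and Ifnb1, the gene of interferon beta, at -0.31.

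Costimulatory and checkpoint ligands had a median of -0.45 over 13 genes, with 9 below and 4 above the median of all genes, 2 at least 2-fold lower and 1 at least 2-fold higher. Tnfsf9, the ligand of 4-1BB, had 45.8 and 15.6 CPM (-1.55), and Cd40, the receptor through which T cells license dendritic cells, had 377 and 159 CPM (-1.24, and -0.89 with scaling by library size alone). The gene that was higher was Pdcd1lg2, which encodes the PD-1 ligand PD-L2, at 7.63 and 15.97 CPM (1.06). Complement genes had a median of -0.36 but ranged up to C2 at 12.5 and 32.9 CPM (1.39) and Cd55 at 6.27 and 13.5 CPM (1.1). In the Notch list (median -0.34 over 14 genes) Notch1 had 137 and 90.3 CPM (-0.61), the ligand gene Dll1 6.48 and 2.52 CPM (-1.35) and the regulator gene Dtx1 2.56 and 7.65 CPM (1.56). Lipid genes had a median of -0.12, and the synthesis genes Fasn and Scd1 stood at 1.56 and 1.16.

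Markers of classical dendritic cells were higher. Of 14 genes 12 lay above the median of all genes, 8 were at least 1.5-fold and 4 at least 2-fold higher, and the list median was 0.80. Flt3, the receptor of the dendritic cell growth factor, had 16.4 and 41.5 CPM (1.34), and Zbtb46, a transcription factor that marks classical dendritic cells, had 9.78 and 24.5 CPM (1.32). Itgax, which encodes CD11c, had 159 and 272 CPM (0.77). Markers of type 1 dendritic cells had a median of 0.23, with 6 of 10 genes above and 4 below the median of all genes. Clec9a had 8.84 and 18.9 CPM (1.1), Xcr1 15.6 and 30.8 CPM (0.98) and Itgae, the CD103 gene, 27.3 and 64.8 CPM (1.24). No other gene of that list was at least 1.5-fold higher, Id2 was the lowest (-0.41), and the list summed to 1669 and 1650 CPM. The type 2 and monocyte-derived list was at 0.40, with 5 of 9 genes above and 4 below the median of all genes. The lectin genes Mgl2 and Cd209a had 180 and 403 CPM (1.16) and 7.11 and 13.4 CPM (0.91). The lowest member of that list was Itgam (-0.58), and the list summed to 3354 and 2623 CPM. Markers of mature migratory dendritic cells were split, with 4 at least 2-fold higher and 3 at least 2-fold lower. Fscn1, an actin-bundling protein, had 49.9 and 158 CPM (1.67) and Cacnb3 48.7 and 165 CPM (1.76). The lowest member of that list was Marcksl1 (-1.58), Cd40 was at -1.24, and the list summed to 2648 and 1824 CPM. The plasmacytoid list had a median of -0.08, with Irf7 at -0.50 and Bst2 at -0.46, both also interferon-induced.

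Monocyte and macrophage markers were lower in the same libraries. Of 17 monocyte markers 6 were at least 2-fold lower (median -0.86). Hp was the lowest, followed by Chi3l3, which encodes the secreted lectin Ym1, at 1182 and 362 CPM (-1.71). Of 20 macrophage markers 18 lay below the median of all genes (list median -0.53). Cd14, the endotoxin coreceptor, had 523 and 186 CPM (-1.49), the scavenger receptor gene Marco 624 and 271 CPM (-1.2, and -0.84 with scaling by library size alone), Csf1r 1726 and 953 CPM (-0.86) and Emr1, the F4/80 gene, 409 and 244 CPM (-0.75). Markers of large peritoneal macrophages were divided (median -0.03 over 19 genes). Gata6, their defining transcription factor, had 11.3 and 39.5 CPM (1.79), whereas Timd4, a receptor for dying cells, had 53.6 and 17.0 CPM (-1.66). Gata6, Ltbp1 (15.1 and 66.9 CPM, 2.15) and Tgfb2 can also be expressed by mesothelial or stromal cells.

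The label of the cells was checked against these markers on the length-corrected scale. In the authors' deposited FPKM values Itgax stood at 27.3 in the NT and 60.7 in the Satb1 siRNA library, Flt3 at 3.10 and 10.02 and Zbtb46 at 2.90 and 9.03. Mgl2 stood at 78.6 and 226 FPKM, H2-Ab1 at 1004 and 1231 and Cd74 at 3808 and 4552. The macrophage genes Csf1r (310 and 220 FPKM), Cd14 (244 and 111) and Emr1 (88.3 and 70.5) were above Itgax, Flt3 and Zbtb46 in both libraries, whereas Timd4 (17.1 and 6.93 FPKM) was below Itgax. In the Satb1 siRNA library Mgl2 was above Csf1r. Markers of both dendritic cells and macrophages were thus present, and macrophages can carry class II genes and Mgl2 too.

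Lymphocyte and blood cell markers were few and mostly lower. The B cell list summed to 114 and 78.6 CPM and had a median of -0.49 over 14 genes (Cd79b 8.37 and 3.96 CPM, -1.07, Pou2af1 -1.06). Its lowest member was Igj, the joining chain gene of plasma cells, with 87 and 8 counts (-3.52), further down than Nos2 but under a mean log2 CPM of 2. The T cell list summed to 262 and 237 CPM, with a median of -0.58 over 18 genes (Cd8b1 -0.58). Natural killer markers had a median of -0.20 over 6 genes, with 2 above and 4 below the median of all genes. The natural killer list summed to 143 and 129 CPM. Its highest member was Klrd1 at 5.28 and 10.1 CPM (0.93), and its lowest was Gzma (-1.004), the 1 gene at least 2-fold lower. Erythroid and platelet markers had a median of -0.64 over 7 genes, with the globin transcript Beta-s at 54.2 and 25.1 CPM (-1.11).

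Markers of mesothelium, epithelium and the tumour formed the list furthest above all genes. Of 15 genes past the filter 14 were at least 2-fold higher and none lower (median 1.64), and the remaining gene, Msln, was at 0.99. Their summed level over 18 measured genes was 241 CPM in the low NT library and 826 CPM in the low Satb1 siRNA library, against 1023 to 1154 CPM in the strong experiment. The low NT library was the lowest of the 6. Upk3b, a surface protein of mesothelium, had 40.1 and 198 CPM (2.31), the mesothelial transcription factor gene Wt1 37.6 and 143 CPM (1.92) and the keratin gene Krt8 12.97 and 40.6 CPM (1.64). Bnc1 had 58 and 402 counts (2.56) and Lrrn4 15 and 158 counts (3.12). Defb29, the defensin gene with which the tumour line was engineered, had 30 and 124 counts, a ratio of 3.56 (95% counting interval 2.37 to 5.49). Krt5, a keratin of stratified epithelium, had no count in either library.

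Matrix genes moved with these markers in part. Of 21 matrix and protease genes 4 were at least 2-fold higher and 6 at least 2-fold lower (median -0.18). Sparc, a collagen-binding protein, had 100 and 441 CPM (2.14), Col4a1, a basement membrane collagen, 55.8 and 175 CPM (1.65) and Col3a1 2.56 and 7.199 CPM (1.48). Mmp14, a membrane-bound protease, was the lowest at 470 and 154 CPM (-1.61). Fibroblast and endothelial markers had a median of -0.08 over 10 genes and summed to 141 and 187 CPM. Of these genes 5 lay above and 5 below the median of all genes. At least 2-fold higher were 3, with Pdgfra highest at 2.88 and 9.04 CPM (1.64). At least 1.5-fold lower were 3, with Acta2 lowest (-0.95). The part of mesothelial and tumour RNA in the matrix and epithelial increases was not tested. Without the genes of all cell type lists in the scaling, an alternative added after seeing the data, 1062 genes were at least 2-fold higher and 430 lower.

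**Figure D3:**
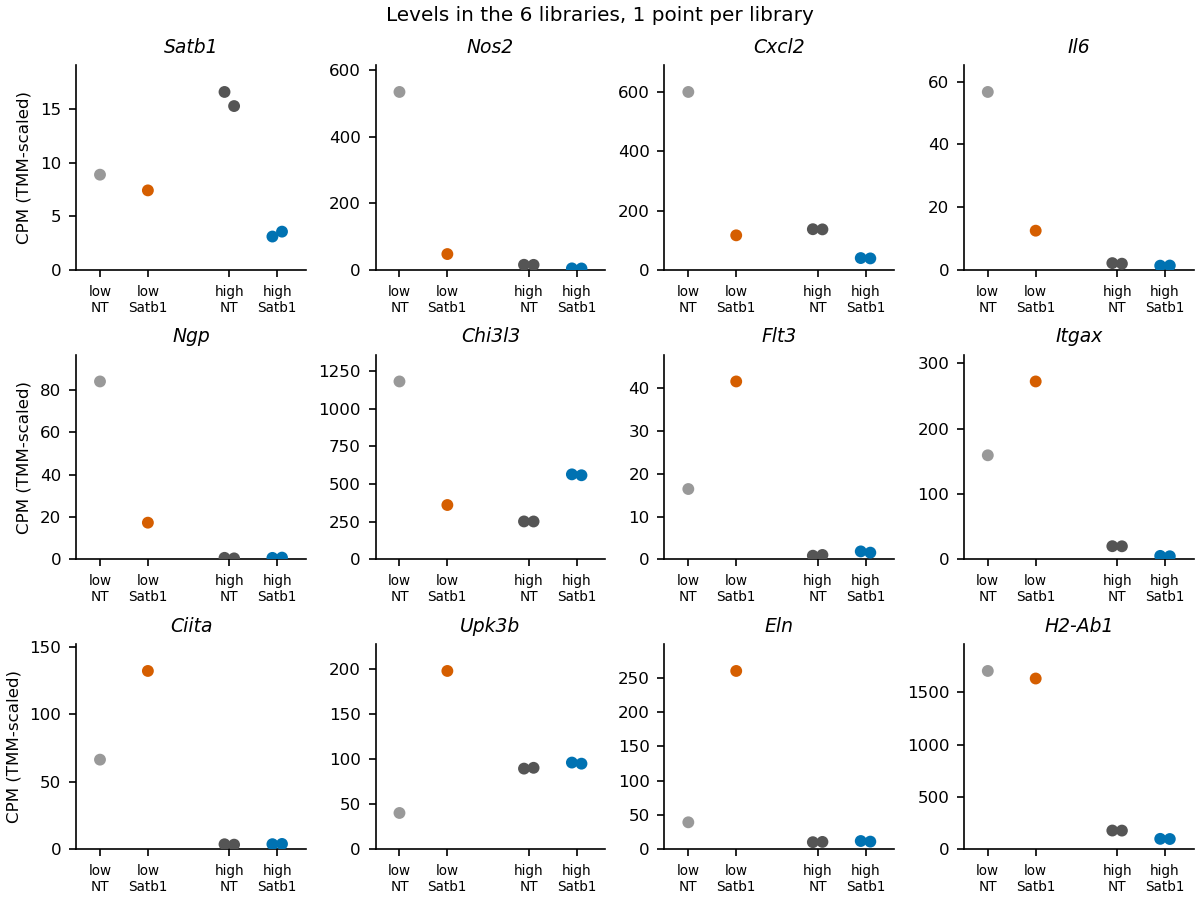
Level of 12 genes in CPM (TMM-scaled, linear axes from 0), 1 point per library, with the libraries of the weak experiment on the left of each panel and the 2 repeats of each strong group on the right. Nos2, Il6, Ngp and Itgax have far higher levels in the low than in the high libraries, and for Upk3b the low NT library is the lowest of all 6.

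The strong experiment, with its own controls, shows which of these differences recur. Of the 1055 genes at least 2-fold higher in the weak experiment, 804 had a log2 ratio above 0 and 250 below 0 in the strong one, where 18 were at least 2-fold higher and 10 at least 2-fold lower. Of the 436 genes at least 2-fold lower, 275 were below 0 and 155 above 0 in the strong experiment, with 37 at least 2-fold lower and 11 at least 2-fold higher. Over all 12977 genes, 5384 were above 0 and 7572 below 0 in the strong experiment. Of the same 12977 genes, 81 were at least 2-fold higher there and 191 at least 2-fold lower. Across genes, which are not independent replicates, the ratios of the experiments had a Pearson r of 0.276 and a Spearman rho of 0.314.

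Whether the siRNA effect differed between the experiments was tested with an interaction term in edgeR (quasi-likelihood test, Benjamini-Hochberg adjustment). It found 8320 of 20971 genes (39.7%) at an adjusted p under 0.05, and 975 (4.65%) when the difference had to exceed 2-fold. The spread in this test comes from the near-identical repeats of the strong experiment alone, so its p-values compare these libraries and not the conditions. The Satb1 log2 effect was 1.99 higher in the weak than in the strong experiment (edgeR quasi-likelihood adjusted p = 6.94e-18). Since the experiments are named for how far Satb1 decreased, this is a description.

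Several inflammatory genes were lower in both experiments, to different degrees. Neutrophil-attracting chemokines had a median of -2.09 in the weak and -1.76 in the strong experiment, and Cxcl1 was at -1.81 and -1.73 (edgeR interaction adjusted p = 0.549). Il1b was at -1.21 and -1.08 (edgeR interaction adjusted p = 0.440). Nos2 was at -3.48 and -1.74, from 15.6 and 15.3 CPM with NT and 4.76 and 4.45 CPM with Satb1 siRNA in the strong experiment (edgeR interaction adjusted p = 9.91e-37). Icam1 was at -1.65 in the weak and -0.11 in the strong experiment (edgeR interaction adjusted p = 1.13e-62). Its value in the strong experiment lay near the median of all genes there (-0.065). CC chemokines ran the other way, with a median of -0.25 in the weak and -1.25 in the strong experiment (-0.90 over the 8 of 10 genes with a mean of at least 1 CPM there), and Ccl5 was at -1.09 and -2.41. Ifnb1 was at -0.31 in the weak and -2.60 in the strong experiment (edgeR interaction adjusted p = 1.59e-26).

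Several antigen presentation and dendritic cell genes that were lower in the strong experiment were near or above their control level in the weak one. Itgax was at 0.77 in the weak and -1.95 in the strong experiment, where it had 20.3 and 20.2 CPM with NT and 5.47 and 4.93 CPM with Satb1 siRNA (edgeR interaction adjusted p = 6.98e-66). H2-Ab1 was at -0.06 and -0.87, Cd74 at -0.09 and -0.97 and H2-Aa at 0.05 and -0.62. Ccl22 was at 0.77 and -1.23, and Fscn1 at 1.67 and -0.61. Flt3 was higher in both, at 1.34 and 0.83. Ccl22, Fscn1 and Flt3 had low levels in the strong experiment, at 0.305 to 0.833, 0.447 to 0.718 and 0.875 to 1.88 CPM. All were above 3 counts, which is 0.038 to 0.054 CPM in those libraries. Cell cycle genes had medians of 0.25 and -0.54.

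Markers of other cell types are given for both experiments with their levels. Genes were filtered on the low libraries, and many of these markers have low levels in the strong ones. Of 19 neutrophil markers 9 had a mean under 1 CPM in the strong experiment, Ngp and Camp among them. The other 10 had a median of 0.28 there, and the summed list went from 356 and 357 CPM with NT to 434 and 436 CPM with Satb1 siRNA. S100a9 was at -1.87 in the weak and 0.59 in the strong experiment, where it had 3.78 and 3.97 CPM with NT and 5.56 and 6.17 CPM with Satb1 siRNA (edgeR interaction adjusted p = 1.56e-43 for S100a9). Chi3l3 was at -1.71 and 1.16 (edgeR interaction adjusted p = 9.23e-114). In the strong experiment the B cell list had 8 of 14 genes with a mean of at least 1 CPM. Their median log2 ratio was 0.77, and the sum of the list went from 51.5 and 51.7 CPM with NT to 60.8 and 61.8 CPM with Satb1 siRNA. The T cell list had 9 of 18 such genes, with a median of 0.40, but its sum went the other way, from 172 CPM with NT in both repeats to 133 and 135 CPM with Satb1 siRNA. Mesothelial markers had medians of 1.64 and 0.18, with Upk3b at 89.4 and 90.3 CPM with NT and 96.1 and 94.9 CPM with Satb1 siRNA in the strong experiment. Eln was at 2.74 and 0.14 and Sparc at 2.14 and -0.07.

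**Figure D4:**
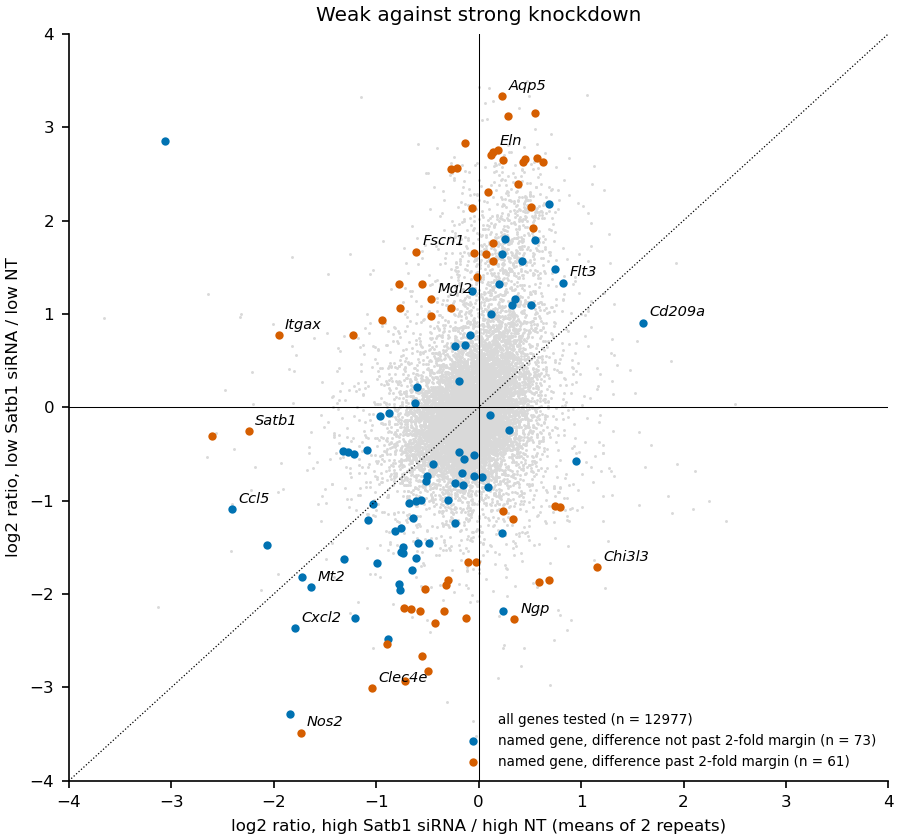
Log2 ratio of Satb1 siRNA to NT in the weak experiment (vertical axis) against the strong experiment (horizontal axis), with all genes tested in grey (6 lie outside the axes), the 61 named genes whose difference passed a 2-fold margin in edgeR in orange, the other 73 named genes in blue and a dotted line of equal ratios. Nos2 and Cxcl2 lie low in both, Itgax and Fscn1 lie high in the weak and low in the strong experiment, and Eln and Aqp5 lie high in the weak experiment and near 0 in the strong one.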

How the data were processed

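Trizol-extracted total RNA was made into libraries with a stranded TruSeq kit, per the labels' protocols. The deposited table gives a count and an FPKM value for 27634 gene symbols in each of 6 libraries, per the file headers. Its count columns were read as estimated counts from the authors, because the submitters' processing notes name RSEM 1.2.12, with DESeq2 and the genome build mm9; all were whole numbers already. The authors' FPKM values, relative to gene length and library size, were used for Satb1 and for the check of cell type markers. Aligner, filters and use of strand: not given in the sources used here. Reads that fit more than 1 gene are divided among them in such counts, so values of near-identical genes depend on that step.

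Log2 ratios of CPM were computed in edgeR 4.0.16 (R 4.3.3) with TMM scaling over 6 libraries and a prior count of 2, where the mean log2 CPM over the 2 low libraries was at least 0. Intervals of a ratio are exact 95% intervals (Clopper-Pearson) and cover counting error alone, as PCR copies are not separate molecules. The interaction of siRNA and experiment was tested with edgeR's quasi-likelihood F-test over 4 groups (filterByExpr by group, two-sided, threshold 0.05), and against a 2-fold margin with glmTreat. DESeq2 1.42.0 served as an alternative. The fits were tested on simulated counts with little spread beyond counting noise in every library. Such data cannot show how the interaction test performs if the low libraries vary more. Nothing says that the repeats of the strong experiment came from separate mice, so the p-values may measure technical spread. Their replicate numbers did not pair the samples (correlation of deviations -0.028 over 14260 genes).

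The comparison and its 40 gene lists (24 pathways, 16 cell types) were chosen with earlier results of these data known. Of 687 entries 659 matched the table, 6 by an older symbol. Named genes are Satb1, the 12 largest increases and 12 largest decreases among genes that reach a mean log2 CPM of 2 and are not unnamed loci or small RNA, the 2 members of each list with the largest ratio at that level, and 11 fixed genes, 101 in all, with 1 further gene of the rule not reported here. Another 33 were added after their values were seen: Tnf, Il1b, Il12b, Cxcl1, Ccl2, Ccl22, Nfkbia, Icam1, Egr1, Arg1, Hmox1, Slc2a1, Fth1, Ftl1, Mmp14, S100a8, S100a9, Gata6, Timd4, Emr1, Xcr1, Defb29, Wt1, Lrrn4, Krt8, Ifnb1, Isg15, Rpl7, Mcm4, Mki67, Sema3a, Col16a1 and Adamts5. Further list members named with counts alone or at the end of a range were chosen likewise. The limit of 1 CPM for lists in the strong experiment was set after seeing the data. Promoter sequences are from RefSeq on GRCm38.p6, not the authors' build, and no coordinates of mm9 are given.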

Additional observations from a re-analysis of the deposited data

Results flagged for a closer look

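Of 134 named genes, 129 had an siRNA effect that differed between the weak and the strong experiment in edgeR's quasi-likelihood test, and 61 of these passed a 2-fold margin. Over all genes tested the shares were 39.7% and 4.65%, and most named genes were chosen for large ratios in the weak experiment or after their values were seen, which favours a high share among them. The exceptions were Camp, Cxcl1, Il1b, Ftl1 and s11-6. Values in brackets are the log2 effect of the weak minus that of the strong experiment in the edgeR fit. The test rests on the near-identical repeats of the strong experiment and compares libraries. Ratios had opposite signs in the experiments for 24 of the 61 genes. Their ratios in the strong experiment ran from near 0 (C2 -0.02, Col4a1 -0.05, Sparc -0.07) to far from it (Itgax -1.95).

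The effect was lower in the weak experiment for 25 genes. Neutrophil and monocyte genes among them were Chi3l3 (-2.86), Ngp (-2.62), S100a8 (-2.55), S100a9 (-2.47) and Hp (-1.59). Inflammatory and macrophage genes were Ptges (-2.33), Gpr84 (-2.13), Clec4e (-1.96), Saa3 (-1.85), Nos2 (-1.74), Slpi (-1.64), Timd4 (-1.64), Il6 (-1.60), Sod2 (-1.55), Icam1 (-1.55) and Marco (-1.54). Stress and metabolic genes were Hspa1a (-2.21), Hspa1b (-2.11), Adm (-1.496), Slc7a11 (-1.42) and Ero1l (-1.42). The lymphocyte and red cell genes Cd79b (-1.89), Pou2af1 (-1.83) and Beta-s (-1.35) and the kinase gene Tesk2 (-1.90) completed this side.

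The effect was higher in the weak experiment for 36 genes. Dendritic cell and other immune genes were Itgax (2.73), Ifnb1 (2.34), Fscn1 (2.31), Ccl22 (2.09), Klrd1 (2.04), Il12b (1.91), Mgl2 (1.63), Cacnb3 (1.62), Xcr1 (1.45) and C2 (1.42). Mesothelial and epithelial genes were Aqp5 (3.12), Lrrn4 (2.88), Bnc1 (2.795), Upk3b (2.22), Krt8 (1.58) and Wt1 (1.39). Matrix genes were Col16a1 (2.86), Loxl1 (2.59), Eln (2.59), Lox (2.57), Islr (2.43), Sparc (2.20), Col4a1 (1.70) and Ltbp1 (1.63). Adhesion and guidance genes were Flrt1 (2.63), Plxnb1 (2.21), Sema3a (2.01) and Kirrel (2.01). The others were Ak7 (3.001), Slc22a23 (2.21), Hist1h2bg (2.11), Mgat3 (2.11), Satb1 (1.99), Cdc20 (1.85), Fasn (1.42) and Phgdh (1.34).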

How the results depend on the processing

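Satb1 went from -0.26 to 0.095 with library size alone and to 0.086 in the authors' FPKM, and ran from -0.32 to -0.11 under the other settings. Genes at least 2-fold higher numbered 1055, against 1598 with library size alone, 3586 without a filter, 606 at a mean log2 CPM of at least 2 and 1846 at a fold of 1.5. Genes at least 2-fold lower numbered 436, against 164, 2127, 283 and 1508 under the same settings in that order, and 262 with TMM over the genes that reach a mean log2 CPM of 4, an alternative added after seeing the data. The number of lists with a median below that of all genes was 30 of 40, and 28 to 30 under the alternatives. With library size alone Dll1, Rsad2, Egr1, Cd40, Il1b, Marco, Fth1, Beta-s, Ccl5, Cd79b, Pou2af1, Ftl1, Manf and H2-Q7 were no longer 2-fold lower. Under the same scaling Mcm4, Lgals1, Ccl22, Itgax, Rrm1, Cd209a, Klrd1, Xcr1 and Ciita became 2-fold higher. No named gene at least 2-fold away from its control reversed. Of 665 values of named genes under the alternatives, 175 left their 95% counting interval, 106 of them with library size alone. Of 279 list medians, 58 moved by over 0.1. The genes whose effect differed between the experiments numbered 8320 in edgeR, 3802 in DESeq2 and 975 past a 2-fold margin, and the cause was not tested. With the replicate number as a block there were 8553, and leaving out 1 library of the strong experiment gave 8077 to 8158, where the lone library of a group is assumed to vary like the others. No paired analysis was possible for the low libraries themselves because each group has 1 library. At 24553454 to 27029554 counts, genes under 3 counts were not detectable, and 1 library for each siRNA leaves the variation between mice unmeasured.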

Other observations

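Gene families were also read by the stem of the symbol, over 190 stems with at least 8 tested genes. This grouping was made after seeing the data. The highest medians were those of the Adamts, collagen and semaphorin families. The Adamts family of secreted matrix proteases had a median log2 ratio of 1.65, and 6 of its 9 tested genes were at least 2-fold higher, with Adamts5 at 2.17 (12 and 66 counts in the NT and Satb1 siRNA libraries). Collagen genes had a median of 1.42, with 10 of 19 at least 2-fold higher and 1 lower, up to Col16a1 at 2.55 (25 and 174 counts). Semaphorins, which signal through plexins, had a median of 1.41, with 10 of 15 at least 2-fold higher. Sema3a had 4.34 and 22.9 CPM (2.39), and the lowest of that family was Sema4d, the immune semaphorin, at -0.93. In the strong experiment the medians of these families were 0.37, 0.13 and 0.35. The mesothelial marker list was higher in the same library, and its part in these families was not tested.

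At the other end stood the Cxcl chemokines, with a median of -1.72 and 6 of 8 at least 2-fold lower, and -1.04 in the strong experiment. Next came families with smaller differences. The Rps family had a median of -0.59 over 36 genes and the Rpl family of -0.52 over 45 genes, against 0.053 and 0.030 in the strong experiment. The Ms4a genes had a median of -0.56 over 8 genes (-0.016 in the strong experiment). The Gbp family of interferon-induced GTPases had a median of -0.49 over 8 genes (-0.40 in the strong experiment). The Tmed family of secretory cargo receptors had a median of -0.55 over 9 genes (-0.33 in the strong experiment).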
